A study of Mus musculus with 6 samples.

Results

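The genes described here build ribosomes in the nucleolus, and they were measured in cells of the mouse forelimb autopod, the hand plate in which the digits form. They comprise 55 genes chosen by name from the array annotation, out of 21245 named genes on the array, and were covered by 77 of its 55681 probes. All embryos were Sox9EGFP knock-in mice of strain C57BL/6 at stage E11.5, with EGFP placed at the locus of Sox9, the transcription factor that starts cartilage formation. Mesenchymal autopod cells were separated by FACS into those positive and those negative for Sox9-EGFP, so both groups carry the same allele and differ in reporter fluorescence. Each group had 3 samples, each pooled from some 10 autopods, with a single 1-colour Agilent array per sample. No source used here gives the gates of the sort or the litters behind the samples, so p-values measure the spread between these samples, which may be technical. The comparison asks which genes differed between cells with and without the Sox9 reporter.

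Ribosome production starts when RNA polymerase I transcribes the ribosomal DNA into a long precursor. Small nucleolar ribonucleoproteins (snoRNPs) modify that precursor, the small subunit processome folds and cuts it into the part for the small subunit, and a separate set of factors assembles the large subunit. The pathway is among the most costly a growing cell runs, and MYC family proteins are known to raise the transcription of many of its genes. The genes were grouped by these roles. They were 9 genes for RNA polymerase I transcription, 6 nucleolar scaffold proteins, chaperones and regulators, and 7 snoRNP proteins. The others were 20 small subunit factors and 13 large subunit factors.

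Levels are given as the log2 of the processed intensity relative to the 75th percentile of each array. A difference is the mean of the positive arrays minus the mean of the negative arrays, with n = 3 per group throughout. A gene was called when its Benjamini-Hochberg adjusted p in limma, taken over all 13197 genes tested, was under 0.05. Levels of different probes are not compared with each other. Positive replicate 1 was the dimmest array, with a 75th percentile of 126 against 385 to 478 elsewhere and 24743 spots well above background against 29800 to 35277. The sort was checked by Sox9 itself, which was 20.7-fold higher in positive cells (log2 difference 4.37 ± 0.19, SE; adjusted p = 0.000146).

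Nucleolar ribosome biogenesis genes were lower in Sox9-EGFP positive cells. Of the 53 members tested, 43 were called lower and 0 higher, while 24.4% of all tested genes were called lower and 10.6% higher (35.0% in either direction). At an unadjusted limma p under 0.05 the counts were 49 lower and 0 higher. Every tested member had a difference below 0, and 51 lay below the median of all genes. The median of the members was -0.996, a level 1.99-fold lower, against -0.18 for all tested genes, and 43 members lay below the lower quartile of all genes at -0.49. Differences ran from -1.68 for the RNA helicase Ddx21 to -0.10 for the polymerase I factor Ubtf. Npm3, a nucleolar chaperone, and Utp18, a processome protein, were not tested, because Npm3 was well above background on 1 array and Utp18 on 0. In sorted bulk samples, fewer cells that express a gene and less RNA per cell cannot be told apart.

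**Figure D1:**
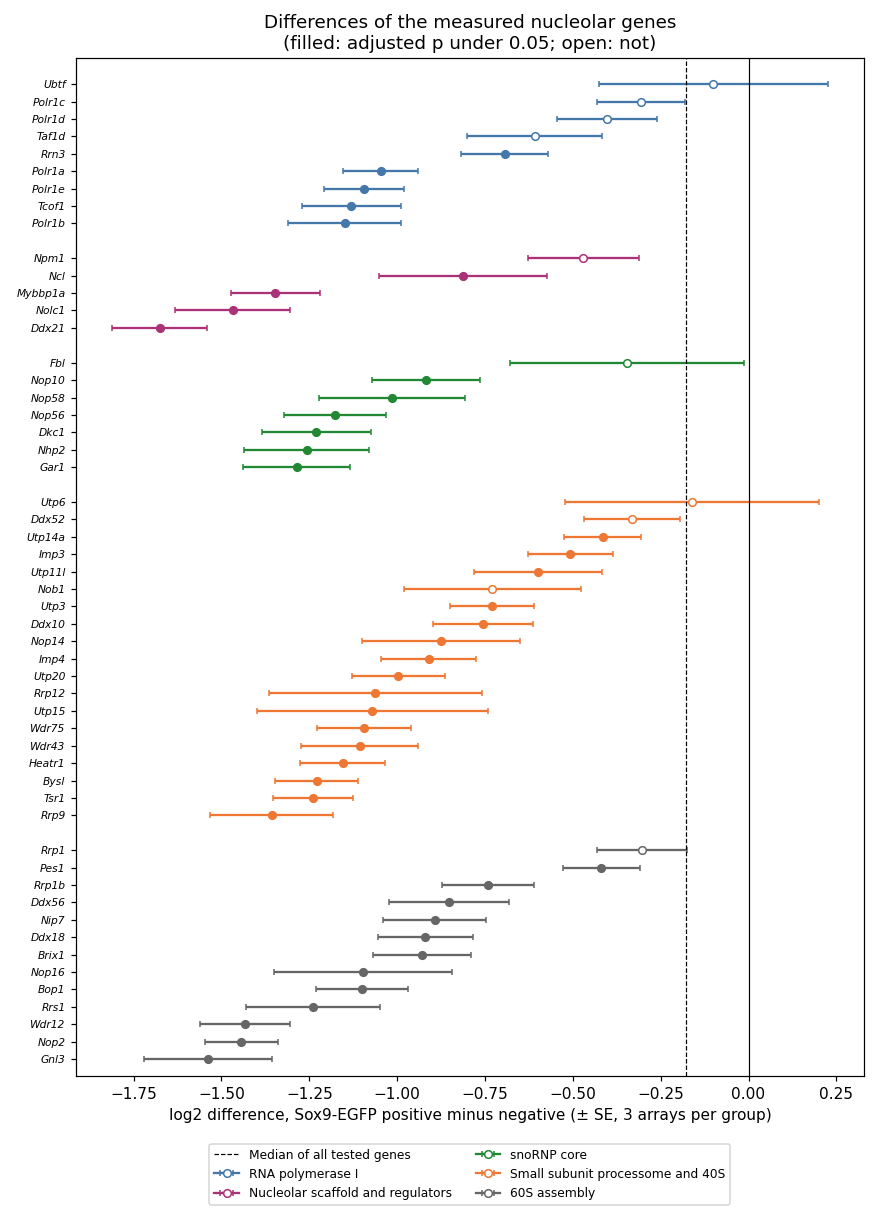
Log2 difference (positive minus negative cells) of each tested member on the horizontal axis with its standard error, ordered within the 5 role groups, n = 3 arrays per group. All 53 points lie left of 0, and 43 were called lower.

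The array values separated in nearly every member. All 3 positive arrays lay below all 3 negative arrays in 50 of 53 members, which holds for 36.3% of all tested genes. The exceptions were Ubtf, Fbl and Utp6. The difference was both called and at least 2-fold in 26 members, against 5.70% of all genes. Under the 4 other scalings described below, that count of members was 7 to 15. The typical spread of a member, as the median SD over the arrays of a group, was 0.205 in positive and 0.133 in negative cells, close to that of all genes (0.204 and 0.155). Positive and negative arrays shared the 3 slides in pairs, and the median member difference within a slide was -0.90, -0.91 and -1.07, against -0.14, -0.20 and -0.21 for all genes. Within the slides 50, 53 and 53 members were lower, and with slide as a block 45 were called lower (27.3% of all genes), the additional ones being Nob1 and Taf1d. Measured from each gene's mean over the 6 arrays, the median member lay at -0.50, -0.39 and -0.56 on positive replicates 1 to 3. On the negative replicates it lay at 0.51, 0.37 and 0.60. The median of all genes lay at -0.10, -0.08 and -0.10 on the positive and at 0.11, 0.04 and 0.13 on the negative replicates. These values restate the group difference array by array.

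**Figure D2:**
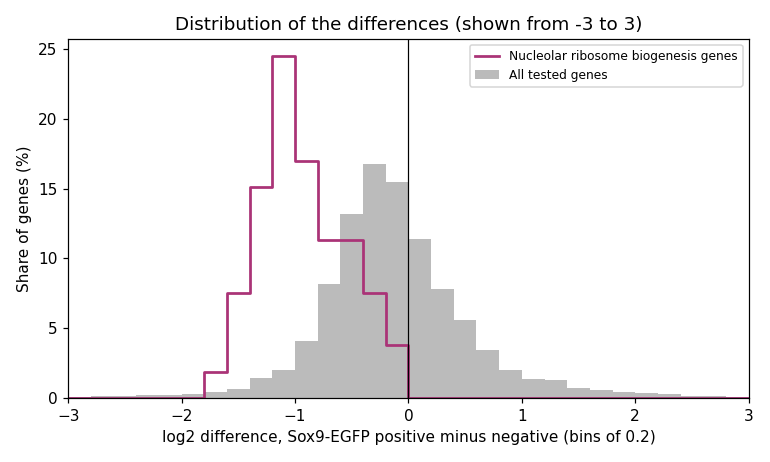
Distribution of the log2 difference over all 13197 tested genes and over the 53 tested members. The members' median is at -0.996 and that of all genes at -0.18.

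The machinery of RNA polymerase I transcription was lower in part. Of 9 genes, 5 were called lower, with a median difference of -0.69, and 8 were called without positive replicate 1. The largest catalytic subunit, Polr1a, gave 2.47, 2.67 and 2.67 on the positive arrays and 3.64, 3.63 and 3.68 on the negative arrays. Its negative arrays were almost identical and stood well clear of the positive ones, a 2.07-fold lower level (log2 difference -1.05 ± 0.11, SE; adjusted p = 0.00138, limma). Polr1b, the second large subunit, gave 1.08, 1.41 and 1.46 against 2.52, 2.25 and 2.63, and was 2.22-fold lower (adjusted p = 0.00377, limma). Polr1e, which belongs to the subcomplex that helps the enzyme initiate and elongate, gave 0.97, 1.11 and 1.07 against 2.14, 2.02 and 2.27. It was 2.14-fold lower (-1.09 ± 0.12, SE; adjusted p = 0.00153, limma), with no overlap between groups.

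Tcof1 encodes treacle, a nucleolar protein that supports ribosomal DNA transcription and whose mutation underlies Treacher Collins syndrome. Its levels were 4.05, 4.38 and 3.98 in positive and 5.17, 5.32 and 5.30 in negative cells, a 2.19-fold lower level (adjusted p = 0.00263, limma). Rrn3, the factor that makes the polymerase competent to initiate, was 1.62-fold lower (-0.69 ± 0.12, SE; adjusted p = 0.00814, limma).

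The other 4 polymerase I genes were not called. Taf1d, a subunit of the selectivity factor that recognises the promoter, had a difference of -0.61 ± 0.19 (SE; adjusted p = 0.0505, limma), next to the threshold. Polr1d and Polr1c, subunits shared with RNA polymerase III, had -0.40 (adjusted p = 0.0700, limma) and -0.31 (adjusted p = 0.104, limma), and Polr1c was measured by 10 spots on each array. Ubtf, which binds ribosomal DNA and keeps it open, gave 8.30, 7.07 and 7.23 in positive and 7.73, 7.50 and 7.67 in negative cells. Its groups overlapped because positive replicate 1 was the highest of the 6 arrays (-0.10 ± 0.33, SE; adjusted p = 0.833, limma). Without that array the adjusted p of Ubtf was 0.0295.

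Nucleolar scaffold proteins, chaperones and regulators had the lowest median of the 5 groups, at -1.35, with 4 of 5 tested genes called lower. Ddx21, Nolc1 and Mybbp1a had the larger differences, and Ncl and Npm1 the smaller. Ddx21, a helicase that couples polymerase I transcription to precursor processing, had the largest difference of all members. It gave 1.12, 0.81 and 0.84 on the positive arrays and 2.45, 2.64 and 2.70 on the negative arrays, a 3.20-fold lower level (-1.68 ± 0.14, SE; adjusted p = 0.000681, limma). The gap between the groups was several times the spread within either. Its probe lies at chr10:62043317-62043376 (mm9), and a second Ddx21 probe had a difference of -1.90. Whether the probes lie in coding exons or untranslated regions was not analysed here.

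Nolc1, which shuttles between nucleolus and cytoplasm and binds snoRNPs, gave 3.90, 3.94 and 3.45 against 5.20, 5.14 and 5.35. It was 2.77-fold lower (adjusted p = 0.00188, limma). Mybbp1a, a regulator of polymerase I and of precursor processing, gave 4.98, 5.06 and 4.75 against 6.37, 6.17 and 6.28, and was 2.54-fold lower (adjusted p = 0.00109, limma). Ncl encodes nucleolin, one of the most abundant nucleolar proteins. Its levels were 5.80, 5.95 and 5.76 in positive and 7.10, 6.16 and 6.69 in negative cells. The negative arrays were spread widely, and the 1.76-fold lower level lay near the threshold (-0.81 ± 0.24, SE; adjusted p = 0.0414, limma). Npm1, or nucleophosmin, gave 7.78, 7.60 and 7.24 against 8.02, 8.0 and 8.01, which did not overlap but was not called (-0.47 ± 0.16, SE; adjusted p = 0.0612, limma).

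The snoRNP proteins fell in both classes of particle. Of 7 genes, 6 were called lower, with a median of -1.18. All 4 core proteins of the H/ACA particles, which turn uridine into pseudouridine in the precursor, were called. Gar1 gave 4.39, 4.66 and 4.22 in positive and 5.85, 5.58 and 5.70 in negative cells, a 2.44-fold lower level (-1.29 ± 0.15, SE; adjusted p = 0.00229, limma). Dkc1, the pseudouridine synthase of the particle and also a telomerase component, gave 0.06, -0.24 and -0.41 against 0.94, 0.995 and 1.18. It was 2.35-fold lower (adjusted p = 0.00274, limma). Nhp2 gave 5.51, 5.44 and 4.95 against 6.51, 6.45 and 6.71, and was 2.39-fold lower (adjusted p = 0.00385, limma). The fourth protein, Nop10, was 1.89-fold lower (adjusted p = 0.00675, limma). None of these 4 had overlapping groups.

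The box C/D particles, which add methyl groups to the ribose of the precursor, were measured by 3 of their proteins. Nop56 gave 5.11, 5.25 and 4.79 in positive and 6.21, 6.19 and 6.28 in negative cells, a 2.26-fold lower level (-1.18 ± 0.14, SE; adjusted p = 0.00257, limma). Nop58, its partner, was 2.02-fold lower (adjusted p = 0.0129, limma). Fibrillarin, Fbl, is the methyltransferase of the same particles. It gave 4.69, 3.78 and 3.49 against 4.29, 4.67 and 4.04, with positive replicate 1 the highest of the 6 arrays, and was not called (-0.35 ± 0.33, SE; adjusted p = 0.460, limma). Without positive replicate 1 its adjusted p was 0.0447.

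**Figure D3:**
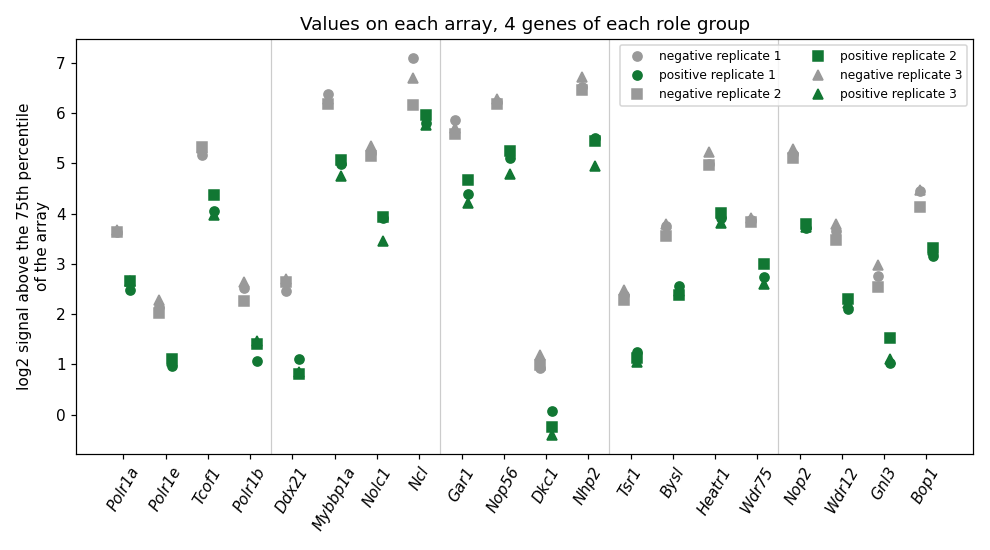
Level of the members with the smallest adjusted p in each role group on each of the 6 arrays, as log2 intensity relative to the array's 75th percentile. Positive and negative arrays do not overlap in any gene shown.

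Small subunit factors formed the largest group, and 16 of 19 tested were called lower, with a median of -0.91. The count was 10 when positive replicate 3 or either of negative replicates 1 and 3 was left out, and 10 under quantile normalization. Tsr1, a GTPase-like protein of late small subunit assembly, gave 1.24, 1.13 and 1.04 in positive and 2.37, 2.28 and 2.48 in negative cells. It was 2.36-fold lower (-1.24 ± 0.11, SE; adjusted p = 0.000991, limma). Bysl, which is needed for maturation of the small subunit, gave 2.57, 2.37 and 2.46 against 3.75, 3.56 and 3.78 and was 2.34-fold lower (adjusted p = 0.00111, limma). In both genes the arrays of a group lay close together and far from those of the other group. Heatr1, a large scaffold protein of the processome that also supports polymerase I transcription, gave 3.91, 4.0 and 3.81 against 4.99, 4.97 and 5.22 (2.23-fold lower; adjusted p = 0.00152, limma). Wdr75, from the same early subcomplex, gave 2.73, 2.995 and 2.59 against 3.87, 3.83 and 3.90 (2.14-fold lower; adjusted p = 0.00254, limma).

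The remaining small subunit calls ranged more widely in size. Rrp9, a protein of the U3 snoRNP that guides the first cuts, had a difference of -1.36, the largest of the group, and the processome proteins Wdr43 and Utp20 had -1.11 and -0.996. Imp4, which joins U3 to the precursor, had -0.91, and Imp3, which acts with it, had -0.51. The helicase Ddx10 had -0.76, Utp3 had -0.73 and Nop14 had -0.88. Rrp12 and Utp15 had -1.06 and -1.07, but their SE values of 0.30 and 0.33 put them at adjusted p = 0.0378 and 0.0469 (limma). Utp11l and Utp14a, at -0.60 and -0.42, were also called. Not called were the endonuclease Nob1 (-0.73; adjusted p = 0.0665, limma), the helicase Ddx52 (-0.33; adjusted p = 0.106, limma) and Utp6. Utp6 gave 7.71, 6.44 and 6.55 in positive and 6.76, 7.35 and 7.07 in negative cells, again with positive replicate 1 the highest (-0.16 ± 0.36, SE; adjusted p = 0.762, limma).

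Large subunit factors were called lower in 12 of 13 genes, with a median of -0.93. Nop2, a methyltransferase of the large subunit's RNA, had the smallest adjusted p of all members. It gave 3.71, 3.80 and 3.74 in positive and 5.18, 5.11 and 5.28 in negative cells, a 2.72-fold lower level (-1.44 ± 0.10, SE; adjusted p = 0.000452, limma). Its probe lies at chr6:125094661-125094720 (mm9). Wdr12 and Bop1 form, with Pes1, the PeBoW complex that is needed for processing of large subunit precursors. Wdr12 gave 2.11, 2.30 and 2.22 against 3.65, 3.48 and 3.80 and was 2.70-fold lower (adjusted p = 0.000905, limma). Bop1 gave 3.15, 3.31 and 3.28 against 4.44, 4.14 and 4.46 and was 2.14-fold lower (adjusted p = 0.00235, limma). Pes1 itself had the smaller difference of -0.42 (adjusted p = 0.0294, limma).

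Gnl3 encodes nucleostemin, a nucleolar GTPase abundant in stem and proliferating cells. It gave 1.03, 1.52 and 1.11 in positive and 2.76, 2.54 and 2.97 in negative cells, a 2.91-fold lower level (-1.54 ± 0.18, SE; adjusted p = 0.00232, limma). Rrs1, which helps bring the 5S particle into the large subunit, had -1.24, and Nop16 had -1.10. The helicases Ddx18 and Ddx56 had -0.92 and -0.85, Brix1 had -0.93, Nip7 had -0.89 and Rrp1b had -0.74. Rrp1, related to Rrp1b, was the only gene of this group that was not called (-0.30 ± 0.13, SE; adjusted p = 0.116, limma).

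Several members were measured by more than 1 probe, and the probes of a gene lay on the same side of 0. Of 75 probes kept, 55 were called lower and 0 higher in a limma fit over 26473 probes, of which 13.7% were called lower, and all 75 had differences below 0. In 19 members with several kept probes, the probes differed by 0.01 to 0.85, with a median of 0.25. All probes were called lower in 11 of these members and some in 5. The next values were chosen after they were seen. The second probe of Ubtf, at chr11:102167265-102167324, gave 1.87, 1.55 and 1.53 in positive and 2.55, 2.62 and 2.62 in negative cells, a difference of -0.95 (adjusted p = 0.00898 over probes, limma). The brighter Ubtf probe, at chr11:102166995-102167054, was the one that overlapped. Utp6 had -0.91 at its dimmer probe (adjusted p = 0.0166, limma) and -0.16 at its brighter one. The dimmer Utp6 probe, among the 55 called lower, was above background on 2 positive and 3 negative arrays. It passed the filter through the negative group, so its direction is no finding. Polr1d had -0.75 (adjusted p = 0.0144, limma) at a probe for another transcript, against -0.40 at the brighter probe. The 4 Npm1 probes lay between -0.74 and -0.47, and 2 of them were called, while the dimmest had overlapping groups. Other probes were weaker. Ncl and Pes1, which were called as genes, had no called probe in the fit over probes. Ncl had adjusted p = 0.0652 and 0.291 (limma) and Pes1 0.0609 and 0.236. With probe means Pes1 was not called (adjusted p = 0.0934, limma). Rrp1 had 0.180 and 0.550 over probes (limma). The dimmer probes of Ncl, Pes1 and Rrp1 had overlapping groups. When the dimmest kept probe stood for each gene, 42 members were called lower, among them Utp6 by its dimmer probe.

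**Figure D4:**
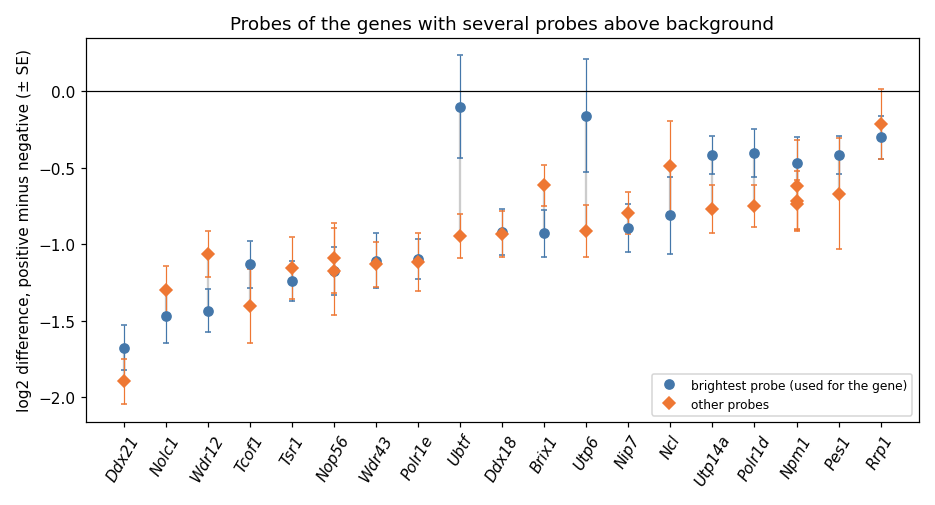
Log2 difference of each kept probe for the 19 members with several probes, positive minus negative cells. All probes lie below 0, and Ubtf has the widest gap, 0.85.

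Of the 43 calls, 10 were lost under at least 1 other scaling and 11 when single arrays were left out. The authors' quantile-normalized values called 38 members lower and 0 higher (14.5% of all genes lower), with a median of -0.70 against -0.04 for all genes. Under normexp with quantile normalization the count was 38, under quantile normalization 33, and with the tested genes centred on their median 36 (17.0% of all genes lower). The difference between the median member and the median gene was -0.82 under the 75th percentile and -0.66 under the authors' normalization. The share of lower genes among all genes called fell from 69.7% to 53.7%, 55.4% and 54.7% under those 3 alternatives and 55.4% with the authors' values. Members both called and at least 2-fold lower numbered 26 under the 75th percentile and 15 with centring. They numbered 11 under quantile normalization, 8 under normexp with quantile normalization and 7 with the authors' values. The sign of uncalled Polr1c, Ubtf, Utp6 and Rrp1 turned to above 0 under some of these scalings.

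**Figure D5:**
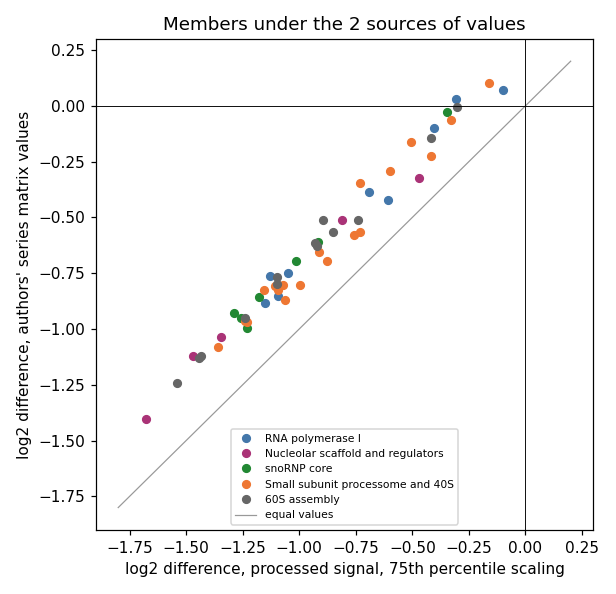
Log2 difference of each tested member from the scanner intensities (horizontal) and from the authors' quantile-normalized values (vertical), positive minus negative cells. The members keep a similar order, and the authors' values lie closer to 0.

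Leaving out 1 array at a time left between 32 and 46 members called lower, the fewest without negative replicate 3 and the most without positive replicate 1. Calls were lost in at least 1 of these 6 fits by Ncl (adjusted p up to 0.122, limma), Utp15 (0.145), Utp11l (0.137), Rrp12 (0.119), Pes1 (0.105), Utp14a (0.103), Nop14 (0.0957), Imp3 (0.0772), Nop16 (0.0750), Nop58 (0.0528) and Ddx56 (0.0506). For Nop58 it was lost without negative replicate 3 alone, and for Ddx56 without negative replicate 1 or 3. The 32 other called members held in all 6 of these fits and in all 4 other scalings. Without positive replicate 1, Polr1d, Taf1d, Npm1, Ubtf and Fbl were called lower as well.

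The rest of the pathway was described from lists of 107 other ribosome biogenesis genes, of which 102 were tested. Of these, 68 were called lower and 1 higher, with a median of -0.72. Of all tested genes 24.4% were called lower and 10.6% higher, with a median of -0.18. Small subunit factors outside the members were called lower in 26 of 34, among them the acetyltransferase Nat10 (-1.10), Wdr46 (-1.22) and Pwp2 (-0.87). Large subunit factors were called lower in 24 of 37, among them Noc2l (-1.36), Ppan (-1.21) and Mrto4 (-1.28). The RNA exosome, which trims precursor ends, had 8 of 13 lower, with Exosc5 at -0.96, Dis3 at -1.09 and Exosc1 at -0.95, and 5 when positive replicate 3 or either of negative replicates 1 and 3 was left out and under both quantile settings and the authors' values. Factors that assemble snoRNPs had 5 of 10 lower, with the ATPases Ruvbl1 and Ruvbl2 at -0.78 and -0.72 and Naf1 at -0.81. Among further polymerase I genes 5 of 8 were lower, with Polr2f, Polr2h and Polr2l, subunits shared between the polymerases, at -0.79, -0.76 and -0.87. That count was 2 without positive replicate 2, positive replicate 3 or negative replicate 3, 3 without negative replicate 1 or 2, and 3 under normexp with quantile normalization, quantile normalization and centring. In the fits behind these smaller counts, 1590 to 2775 of all 13197 tested genes were called lower. Of the 102 genes, 98 were above background on all 6 arrays. Taf1a and Nol10, counted as lower, were above background on 2 positive and 3 negative arrays. They passed the filter through the negative group, so their direction is no finding. The 1 gene called higher was Nufip1, a snoRNP assembly factor (0.49 ± 0.14, SE; adjusted p = 0.0372, limma). Its call was lost in 5 of the 6 fits that left out an array and under normexp with quantile normalization, quantile normalization and the authors' values.

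MYC family and proliferation genes were read beside the members, and their part in the differences was not tested. Of 5 MYC family genes tested, 2 were called lower and 0 higher, with a median of -0.26. Mycn, the MYC family gene of the early limb, gave 3.01, 2.63 and 2.46 in positive and 4.65, 4.70 and 5.09 in negative cells, a 4.33-fold lower level (-2.11 ± 0.20, SE; adjusted p = 0.00104, limma). Max, the partner of MYC proteins, was 1.62-fold lower (adjusted p = 0.0148, limma). Myc had a difference of 0.54 ± 0.33 (SE; adjusted p = 0.257, limma) with overlapping groups, and Mnt and Mycl, at -0.26 (adjusted p = 0.194, limma) and -0.10 (adjusted p = 0.953, limma), were not called either. Of 11 proliferation genes tested, 6 were called lower and 0 higher, with a median of -0.55. The replication licensing genes Mcm5, Mcm2 and Mcm3 had -0.82, -0.78 and -0.88, and Mki67 had -0.35 (adjusted p = 0.0782, limma).

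Markers of other cell types were read on the same arrays, and their part in the differences was likewise not tested. Listed genes given as not above background had no probe that passed the filter, which needs all 3 arrays of either group. The muscle precursor list had 4 of 5 tested genes lower, and its summed level, in units of the 75th percentile, was 0.128 to 0.216 in positive and 0.623 to 1.51 in negative cells, with Pax7 and Myf5 not well above background. Pax3, Myod1 and Myog were above background on 0 positive and 3 negative arrays, and Lbx1 on 1 and 3, so these 4 passed the filter through the group in which they are high and their direction is no finding. The limb ectoderm list had 3 of 5 tested genes higher (Krt18, Krt8 and Trp63), at a summed level of 22.2 to 36.6 against 9.17 to 11.53, with Krt5, Cdh1, Cldn6 and Perp not above background. Its other tested genes, Epcam and Krt14, were not called, at -0.43 (adjusted p = 0.167, limma) and -0.03 (adjusted p = 0.937, limma). Both were above background on 2 positive and 3 negative arrays and passed through the negative group. Red blood cell genes had 0 of 4 called in either direction (1 lower at an unadjusted limma p under 0.05), with 1.06 to 4.89 against 1.68 to 42.9, the highest on negative replicate 2. Of the macrophage and platelet list 1 of 2 tested genes, Pf4, was lower, but it too was above background on 0 positive and 3 negative arrays and passed through the negative group. The summed level of that list was 0.679 to 1.78 against 0.877 to 12.8, and Ptprc, Cd68, C1qa, C1qb, Itga2b and Adgre1 were not above background. Endothelial genes had 0 of 3 called (1 lower at an unadjusted limma p under 0.05, Sox18), with 2.86 to 7.98 against 2.06 to 4.84. Cdh5, Tek, Emcn, Esam and Cldn5 were not above background. Sox18 and Pecam1 were above background on 2 positive and 3 negative arrays, so they too passed through the negative group. The nerve list, at a summed level of 2.30 to 2.94 against 2.23 to 2.45, had 1 of 4 tested genes higher, Sox10. Sox10 was above background on 3 positive arrays and 1 negative array. It passed the filter through the positive group, so its direction is no finding. Among the genes named beside the members, Polr2h, Max, Trp63 and Sox10 lost their calls when certain single arrays were left out (adjusted p up to 0.0824, 0.0593, 0.126 and 0.0862, limma). So did Taf1a, Myod1 and Myog (adjusted p up to 0.110, 0.115 and 0.0704, limma). The blood and macrophage lists were highest on negative replicate 2. Without that array, 40 members and 2775 of all 13197 tested genes were called lower. That fit does not test the part of these cells in the differences.

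Promoter sequence was read for 47 members, in 55 windows from 250 bases before to 50 bases after a gene's start (RefSeq, GRCm38.p6). These windows were searched on both strands for motifs known from growth-related promoters. The E-box CACGTG, the sequence MYC and MAX bind, occurred in 9 windows (16.4%), against 7.15% of all 32851 windows and 9.83% of windows of tested genes. The 9 members were Imp4, Mybbp1a, Nop2, Pes1, Rrn3, Tsr1, Utp18, Utp20 and Wdr43. The letters CCGGAAG, the core bound by ETS factors, occurred in 14 windows (25.5%), against 8.86% of all and 16.5% of tested windows. The element TCTCGCGA occurred in 4 windows (7.27%), against 0.995% and 2.01%, and these belonged to Nop14, Nop58, Polr1c and Tsr1. TATAAA occurred in 2 windows (3.64%), against 13.6% of all and 7.28% of tested windows, and CCAAT in 20 (36.4%), against 37.4% and 37.8%. The YY1 core occurred in 0 windows, against 0.633% and 1.41%. The median GC content was 57.7% in member windows, 52.7% in all windows and 60.7% in those of tested genes. Of the 8 tested members with an E-box, 8 were called lower, with a median of -1.05. Of the 37 without one in a matched window, 30 were, with a median of -0.93. Of all tested genes 24.4% were called lower, and that share was not split by E-box, so these counts show no link to it. These matches describe the letters of the windows and show no binding. Windows of Bop1, Fbl, Npm1, Rrp12, Rrs1, Tcof1, Utp11l and Utp6 were not analysed here.

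The following stretches show the E-box, in capitals, in 3 members of different role: Imp4 of the small subunit (chr1:34439579-34439828, plus strand), Nop2 of the large subunit (chr6:125131633-125131882, plus strand) and Rrn3 of polymerase I (chr16:13780449-13780698, plus strand), each the 250 bases before the gene's start. Rrn3 holds 2 E-boxes and the others 1.
Imp4: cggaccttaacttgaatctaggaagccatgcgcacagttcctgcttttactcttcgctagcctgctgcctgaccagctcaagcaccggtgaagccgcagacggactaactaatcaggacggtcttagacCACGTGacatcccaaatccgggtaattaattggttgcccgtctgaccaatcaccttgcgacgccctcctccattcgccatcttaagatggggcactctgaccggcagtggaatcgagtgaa
Nop2: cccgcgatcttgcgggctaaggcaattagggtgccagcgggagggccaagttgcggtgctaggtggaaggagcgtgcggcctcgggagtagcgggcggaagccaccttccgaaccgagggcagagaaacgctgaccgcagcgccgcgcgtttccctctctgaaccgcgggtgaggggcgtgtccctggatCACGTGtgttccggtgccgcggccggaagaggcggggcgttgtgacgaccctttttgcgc
Rrn3: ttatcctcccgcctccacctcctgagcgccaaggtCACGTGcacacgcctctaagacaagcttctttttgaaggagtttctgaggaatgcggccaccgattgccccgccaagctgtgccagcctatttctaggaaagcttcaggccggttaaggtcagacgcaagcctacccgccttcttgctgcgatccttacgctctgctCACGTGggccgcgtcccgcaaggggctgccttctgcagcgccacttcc

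The element TCTCGCGA, in capitals, is shown in 60 bases of Nop14 (chr5:34660150-34660209, minus strand), Nop58 (chr1:59684828-59684887, plus strand) and Tsr1 (chr11:74897987-74898046, plus strand). Tsr1 holds it in the opposite orientation, as TCGCGAGA. The call of Tsr1 held in every fit that left out an array, those of Nop14 and Nop58 did not, and Polr1c, the fourth member with the element, was not called (adjusted p = 0.104, limma).
Nop14: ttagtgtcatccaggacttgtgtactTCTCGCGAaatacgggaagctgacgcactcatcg
Nop58: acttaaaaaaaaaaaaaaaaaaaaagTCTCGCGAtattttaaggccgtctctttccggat
Tsr1: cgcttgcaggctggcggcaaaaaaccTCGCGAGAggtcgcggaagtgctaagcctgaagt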

How the data were processed

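Per the file headers, the authors' Feature Extraction software (10.7.3.1) gave each spot an intensity corrected for background and spatial trend, with no step between arrays. In the deposited series matrix are the authors' log2 values, quantile-normalized as every column has the median 6.41, with a background correction not stated in the labels or headers. The labels' protocols name both 100 ng and 75 ng as the RNA labelled.

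Intensities were converted to log2 and each array's 75th percentile over 59305 non-control spots was subtracted. Replicate spots were averaged, outlier spots left out, and a probe was kept if all 3 arrays of either group had it well above background. Probes were named by accession (26300), symbol (2044) or older symbol (355), and 26982 without a match were not used. The brightest kept probe stood for each gene, giving 13197 genes. The test was limma 3.58.1 (R 4.3.3), with Benjamini-Hochberg adjustment over all genes. The smallest exact p of 3 against 3 arrays is 0.1, so calls rest on the variance limma shares between genes. Simulated data were used to test the pipeline.

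The members and gene lists were chosen with earlier results of these data known. Named are all members, with array values for up to 4 per role with the smallest adjusted p, members whose call or sign changed with an array or scaling left out or exchanged, up to 3 called genes per other list, Sox9, Mycn and Myc. Array values of the uncalled Ubtf, Utp6, Npm1 and Fbl, the levels of cell type markers and Mki67 were chosen after they were seen. The alternatives are given in the closing section.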

Additional observations from a re-analysis of the deposited data

How the results depend on the processing

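Counts of members called lower ranged from 32 to 50 over all alternatives, with 0 called higher in each: 34 without the background filter, 44 with the filter on all 6 arrays, 44 with probe means, 39 by the array's gene names, 47 with trend and robust moderation, 50 with array weights and 32 at an adjusted p under 0.01. The members' median was -0.71 under normexp with quantile normalization, -0.77 under quantile normalization, -0.85 centred and -0.70 with the authors' values. That of all genes was -0.0305, -0.0557, -0.0277 and -0.0400 there, 0.10 without a filter and -0.11 by array gene names. All genes called lower numbered 1885 under normexp with quantile normalization, 1759 under quantile normalization, 1910 with the authors' values, 1574 without a filter and 1366 at 0.01, and 1590 to 3533 when 1 array was left out, against 895 to 1643 higher. At 0.01, 743 were higher. With the filter on all 6 arrays 3193 of 11772 genes were called lower, and by array gene names 3172 of 19454. Of 13197 genes, 2978 were called lower with probe means and 3587 with trend and robust moderation. Array weights, with the highest count of members, called 4665 genes lower, against 3217 in the main fit. Other ribosome biogenesis genes called lower numbered 43 at 0.01, and 0 were called higher in place of 1 under normexp with quantile normalization, quantile normalization, the authors' values, no filter, array gene names, trend and robust moderation and 0.01, and 0 to 1 with an array left out. Member probes called lower numbered 30 to 58 with an array left out, an alternative added after seeing the data, as was the dimmest probe.

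Members not called turned sign. Under normexp with quantile normalization, quantile normalization and the authors' values, Polr1c was at 0.0425, 0.0473 and 0.0303, Ubtf at 0.13, 0.14 and 0.07, and Utp6 at 0.14, 0.14 and 0.10. Rrp1 was at 0.0371 and 0.0587 in the first pair, and centred Ubtf was at 0.0497. With an array left out, Ubtf ranged from -0.49 to 0.13 and Utp6 from -0.57 to 0.0674, both lowest without positive replicate 1 and above 0 without positive replicate 2 (also 0.0540 and 0.0146 without positive replicate 3).

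With the replicate number as a block, 32 members were called lower, 1301 of all genes lower and 856 higher, 40 other ribosome biogenesis genes lower and 0 higher, and 16 member probes. Deviations from the group means correlated at -0.27, -0.42 and 0.16 between same-numbered arrays, none of which shared a slide. Between arrays on the same slide the correlations were 0.46, 0.36 and 0.23. Because deviations cancel within a group, the slides also shape the other correlations. The check therefore cannot decide whether the numbers pair the samples. With 3 arrays per group, differences well under 2-fold were often not called. The cause of these shifts was not tested.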
